A study of Glycine max with 16 samples.

Results

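Leaves of soybean (Glycine max, cultivar Williams 82) were compared between strongly inhibited and best photosynthesis. The comparison set the 4 arrays taken at 30% inhibition, where photosynthesis had dropped to 30% below its best value at high temperature, against the 4 arrays taken at the optimum, the temperature of highest photosynthesis. They were chosen by the state given in the sample labels, and are 8 of the 16 arrays of the series. The other 8 arrays, 4 at 20% inhibition and 4 at the growth temperature (baseline), shared the estimate of the spread and are cited where they place a value. All 61035 probe sets that are not AFFX controls were considered, of 61170 on the array. A probe set is a group of short probes for 1 transcript, and its signal is a fluorescence intensity.

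Every plant, per the labels' protocols, came from a chamber kept at 22 °C and 60% relative humidity, lit for 10 h a day at 350 µmol m-2 s-1, and the first fully expanded leaf was taken. Temperature was raised in steps of 2 °C every 10 min, in a range that ended at 42 °C, with a wait of 20 to 30 min before a leaf was collected, and a whole curve took 3 to 4 h. The sources used here give no temperature for the optimum or for 30% inhibition. States were reached in order along 1 curve, so 30% inhibition differs from the optimum in temperature and in time since warming began, which cannot be told apart. There were 4 plants in each state, and the labels do not say if 1 plant served several states, so p-values measure the spread between these arrays.

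Photosynthesis rises with temperature up to an optimum and then declines, and Rubisco activase, the chaperone that keeps Rubisco active, is known as one of its heat-labile parts. Plant cells answer protein unfolding with heat shock transcription factors, which switch on genes of chaperones. Small heat shock proteins hold unfolded proteins, HSP101 pulls aggregates apart, HSP70 and its cochaperones refold, and HSP90 matures signalling proteins. The circadian clock, which times photosynthesis and nitrogen use to the day, is built on morning MYB factors such as LHY and evening factors such as LUX that repress each other.

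The arrays had been scaled by the authors to a common mean, and signals are comparable between arrays for the same probe set but not between probe sets. Arrays of 1 state correlated over the tested probe sets at 0.926 to 0.945 within 30% inhibition and at 0.937 to 0.967 within the optimum (Pearson's r of log2 signals). A background level per array, the 95th percentile of the PsAffx and HgAffx probe sets, which are named for other species, was 80.05 to 149.44 signal units at 30% inhibition and 76.3 to 100.4 at the optimum (exact two-sided permutation test, p = 0.2, adjusted p = 0.45 over 9 array measures). For the second actin control the 3′ probe set exceeded the 5′ one on the log2 scale by 1.37 ± 0.07 at 30% inhibition and 1.18 ± 0.15 at the optimum (SD, n = 4 each; exact permutation test, p = 0.0286, the smallest 4 against 4 arrays can give, adjusted p = 0.257), and the other 6 control transcripts differed with exact p of 0.114 or more. Leaf markers were strong in both states. The 13 probe sets of Rubisco activase and light-harvesting genes summed to 300562 to 383672 at 30% inhibition and to 326512 to 392156 at the optimum. The 10 seed storage and trypsin inhibitor probe sets summed to 233 to 638 at 30% inhibition and to 157 to 338 at the optimum, and 0 of them lay above background on all 4 arrays of either state. The 4 nodule probe sets summed to 165 to 292 at 30% inhibition and to 184 to 292 at the optimum, and again 0 lay above background on all 4 arrays of either state. Of flower symbols, AP1A and AG1 lay above background on all 8 arrays, with sums of 1091 to 3137 at 30% inhibition and 1557 to 3202 at the optimum.

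Between the optimum and 30% inhibition, 4267 of 30517 probe sets tested (14.0%) passed the threshold of an adjusted p under 0.05. Of these, 2094 were higher at 30% inhibition (6.86% of those tested) and 2173 were lower (7.12%). With a state that was below background on all 4 of its arrays set to the background level, 132 probe sets rose at least 4-fold and 52 fell at least 4-fold, and at 16-fold the counts were 37 and 2. With the signals as measured they were 143 and 73 at 4-fold, and 40 and 4 at 16-fold. The median change was 0.71 on the log2 scale among those higher and -0.69 among those lower, against -0.0037 over all probe sets tested. For 6410 probe sets (21.0%) the 4 values of 30% inhibition and the 4 of the optimum did not overlap, and 3875 of these were among the 4267. When each of the 8 arrays was left out in turn, 2358 probe sets, 55.3% of the calls, stayed past the threshold in all 8 fits. With the array background level as a covariate 2739 passed. Among the PsAffx and HgAffx probe sets 10 of 835 (1.20%) passed.

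**Figure D1:**
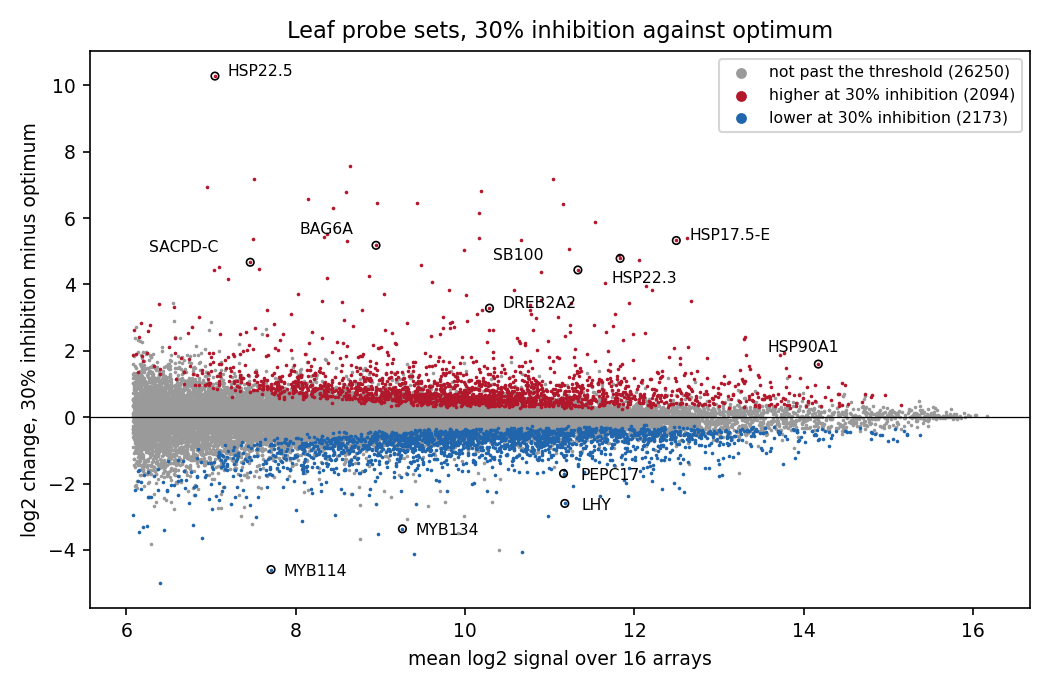
Log2 change at 30% inhibition minus the optimum (vertical axis) against the mean log2 signal over 16 arrays (horizontal axis), 1 point per probe set tested. Red points are the 2094 higher and blue points the 2173 lower at 30% inhibition, grey points did not pass, and circles mark some of the genes named in the text. Signals below background are drawn as measured, so the place of HSP22.5 and MYB114 on the vertical axis is not a measured size.

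No probe set passed between 20% and 30% inhibition. Set against the same optimum arrays, 20% inhibition gave 5059 calls (16.6%), 2403 higher (7.87%) and 2656 lower (8.70%). Directly between 30% and 20% inhibition 0 probe sets passed in limma, and 1193 had an unadjusted p under 0.05, with a smallest adjusted p of 1.0. Both comparisons with the optimum share the optimum arrays, so their values are given side by side below and are not independent of each other.

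Names limit what can be described. Of the 100 probe sets with the largest rises, 27 have 1 annotated gene and 10 a product name, and of the 100 with the largest falls, 29 and 14. The array's annotation gives product names for 1510 of the probe sets tested, of which 254 (16.8%) passed. These reduce to 936 genes, each represented by its brightest probe set, of which 71 were higher and 96 lower. The named genes with the largest rises and falls, also within each gene list, were picked from those whose 4 values per state did not overlap. For them the separation of the states follows from the choice and is not a result. Among probe sets with no annotated gene, chosen after their values were seen, the one with the largest rise among those above background in at least 1 array of both states read 6250, 6261, 9721 and 11379 at 30% inhibition and 85.9, 58.5, 49.2 and 13.4 at the optimum, a log2 change of 7.57 ± 0.56 (SE throughout, n = 4 arrays per state), with 3 optimum arrays below background. The one with the largest fall of that kind read 190.5, 149, 109 and 163 at 30% inhibition and 2744, 2944, 1897 and 3060 at the optimum, a log2 change of -4.13 ± 0.28. Both were taken from probe sets past the threshold whose 2 states did not overlap, so their separation follows from the choice.

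Small heat shock proteins rose throughout. All 8 tested probe sets of 4 genes rose at 30% inhibition, with a median log2 change of 4.31, and the 7 that were above background at the optimum changed by 0.92 to 5.89. All 8 stayed past the threshold in each fit that left out 1 array. HSP22.5 read 2326, 2921, 6228 and 6209.7 at 30% inhibition, against 3.50, 1.89, 3.27 and 5.14 at the optimum. Its 4 optimum signals all lay below background, so the gene was at least 47.0-fold higher at 30% inhibition (adjusted p = 5.98e-10), and arrays 3 and 4 of 30% inhibition read more than the other two. HSP17.5-E read 41959, 49564, 52251 and 53827 at 30% inhibition and 1411, 1379, 942 and 1242 at the optimum. The states lay far apart with little spread within either, a log2 change of 5.32 ± 0.18 (adjusted p = 1.15e-11). A second probe set of the gene gave 5.89 ± 0.22. HSP22.3 read 23600, 25614, 27977 and 31027 at 30% inhibition and 1099.5, 930, 949 and 942 at the optimum. The log2 change was 4.78 ± 0.16 (adjusted p = 1.15e-11).

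HSP23.9 rose by different amounts in its 4 probe sets. Its brightest probe set read 36040, 43080, 49000 and 48468 at 30% inhibition and 26772, 26449, 18826 and 21530 at the optimum. The gene was already strong at the optimum, where this probe set averaged 23394 ± 3877 against 3690 ± 976 at baseline (SD, n = 4 each), and the further log2 change to 30% inhibition was 0.92 ± 0.16 (adjusted p = 0.00132). The dimmest of its probe sets read 5627, 4475, 8206 and 5762 at 30% inhibition and 579, 444, 283 and 394 at the optimum, a log2 change of 3.84 ± 0.31. The remaining pair gave 1.18 ± 0.19 and 1.28 ± 0.19. The highest signal in the whole table was 89579, and whether bright probe sets were near saturation was not tested.

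The disaggregase and the HSP90 genes followed different courses. SB100, the soybean HSP101 gene, read 8217, 13280, 22948 and 23677 at 30% inhibition and 849, 869, 468 and 784 at the optimum. The spread at 30% inhibition was wide, and the log2 change was 4.44 ± 0.29 (adjusted p = 3.49e-08). HSP90A1 rose in all 3 of its probe sets, by 1.60 ± 0.26, 1.87 ± 0.28 and 1.93 ± 0.28. Its brightest probe set read 50043, 58754, 65542 and 64346 at 30% inhibition and 24203, 22767, 16021 and 16638 at the optimum, with a baseline mean of 1770.4 ± 1110. Of the 7 probe sets annotated to HSP90-1 0 passed in limma, with log2 changes of -0.31 to 0.36 a smallest adjusted p of 0.212 and 0 probe sets at an unadjusted p under 0.05. The brightest of them read 18967, 22540, 29848 and 30113 at 30% inhibition and 30571, 31303, 30346 and 28352 at the optimum, and these ranges overlapped. A probe set can also take up signal from close relatives of its gene.

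**Figure D2:**
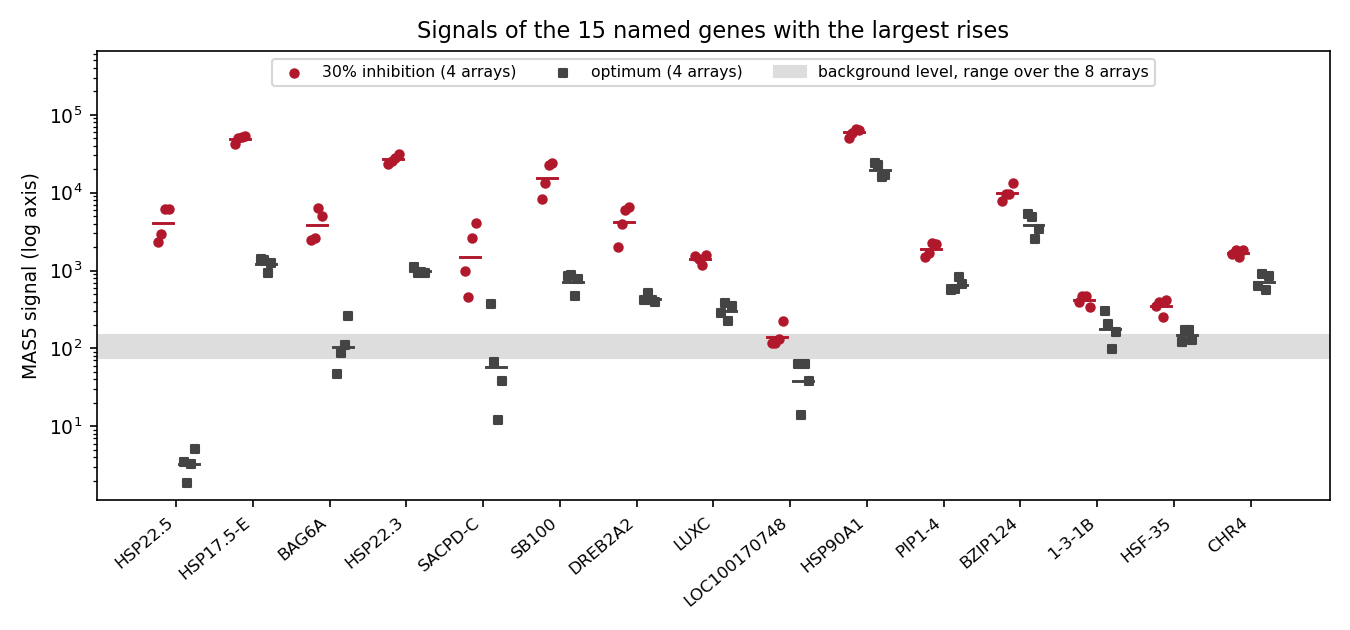
MAS5 signals (log axis) of the 15 named genes with the largest rises, 4 arrays of 30% inhibition (red circles) left of 4 arrays of the optimum (grey squares), with geometric means as bars and the range of the background level shaded. The genes were picked from those with no overlap between the states, so in each the 4 red points lie above the 4 grey ones. HSP22.5 and LOC100170748 lie below background at the optimum.

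Cochaperones and folding enzymes of the endoplasmic reticulum rose in part. BAG6A, of the BAG family that binds HSP70, read 2458, 2633, 6321 and 5018 at 30% inhibition and 46.5, 88.5, 110 and 264 at the optimum. Arrays 3 and 4 of 30% inhibition were again the higher ones, and the log2 change was 5.18 ± 0.64 (adjusted p = 5.36e-05). It was the single probe set of 3 in the cochaperone list to pass, while the J protein J1 read 2014, 2444, 2249.9 and 2709 at 30% inhibition and 1444, 2022, 2009.8 and 2048 at the optimum (adjusted p = 0.295). In the ER folding list 6 of 14 probe sets were higher and 0 lower, a share of 42.9% against 14.0% over all probe sets. The median log2 change was 0.16, and 3 of the 6 stayed past the threshold in every fit that left out 1 array. PDIM-1, a protein disulfide isomerase, read 9132, 8497, 8825 and 8185 at 30% inhibition and 4091, 4699, 4189 and 3767 at the optimum. The 4 values of each state were tight, and the log2 change was 1.05 ± 0.13 (adjusted p = 6.88e-05). For BIP4, the HSP70 of the endoplasmic reticulum, the brightest probe set changed by 0.45 ± 0.14 on the log2 scale (adjusted p = 0.0497). Another of its probe sets, chosen after its values were seen, read 19039, 18070, 17862 and 17558 at 30% inhibition. It read 10409, 9678, 10059 and 7867 at the optimum, a log2 change of 0.94 ± 0.17. Of the 2 calls in the list of HSP70 and BiP, 1 stayed past the threshold in every fit that left out 1 array.

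The single chaperonin probe set fell. CCT-D, a subunit of the cytosolic chaperonin, read 1148, 1301, 1375 and 1210.3 at 30% inhibition and 1947, 1696, 1704 and 1735 at the optimum, and fell by 0.49 ± 0.10 on the log2 scale (adjusted p = 0.00456). Of 15 immunophilin probe sets (cyclophilins, which turn proline bonds) 2 were higher and 4 lower. The falls included CYP11, at -0.98 ± 0.16, CYP26, at -0.92 ± 0.15, and CYP1, the brightest of the list, at -0.55 ± 0.09, and the larger of the rises was CYP17, at 0.78 ± 0.13. CYP1 read 10178, 12881, 12099 and 12434 at 30% inhibition and 17551, 18968, 15711 and 17485 at the optimum, with no overlap. Of 12 probe sets for ubiquitin, its conjugating enzymes and CDC48, 2 were lower and 0 higher, a share of 16.7% near the 14.0% over all probe sets. Both are ubiquitin genes named SUBI-1 in the annotation, with log2 changes of -0.50 ± 0.08 and -0.37 ± 0.09.

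Heat shock transcription factors, the regulators of the chaperone genes, rose in part. Of 14 probe sets tested 5 were higher and 0 lower, a share of 35.7% against 14.0% over all probe sets. The median log2 change was 0.23, and 3 of the 5 stayed past the threshold in every fit that left out 1 array. HSF-35 read 354, 400, 251 and 416 at 30% inhibition and 122, 174, 171 and 130 at the optimum, a log2 change of 1.24 ± 0.29 (adjusted p = 0.00889). HSF-15 read 723, 739, 770 and 748 at 30% inhibition and 423, 368, 355 and 532 at the optimum, close to its baseline mean of 420 ± 76.4, and its log2 change was 0.85 ± 0.17 (adjusted p = 0.00376). Both were picked from genes whose 2 states did not overlap.

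The probe sets of HSF-01 disagreed. The brighter one read 13644, 13396, 9818 and 14968 at 30% inhibition and 12147, 12900, 9744 and 9691 at the optimum, which overlapped (adjusted p = 0.301). The dimmer one read 1564, 1908, 3783 and 3874 at 30% inhibition and 483, 722, 394 and 302 at the optimum, a log2 change of 2.51 ± 0.38 (adjusted p = 0.000338). HSF-03 and HSF-26, chosen after their values were seen, differed more between the optimum and baseline. HSF-03 averaged 2200.4 ± 736 at 30% inhibition and 2378 ± 305 at the optimum, with a baseline mean of 350 ± 116. HSF-26 averaged 1192 ± 450 at 30% inhibition and 1043 ± 109 at the optimum, with 139 ± 46.0 at baseline. Neither passed between the optimum and 30% inhibition (adjusted p of 0.695 or more).

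Among other transcription factors 1 gene stood out by size. DREB2A2, of the DREB family that binds dehydration and heat responsive promoters, read 2029.7, 3984, 6037 and 6505 at 30% inhibition and 416, 513, 419 and 392 at the optimum. The optimum values lay around the baseline mean of 430 ± 174, and the log2 change was 3.29 ± 0.31 (adjusted p = 3.52e-06). It was the single one of 16 DREB and ERF probe sets to pass, a share of 6.25% against 14.0% over all probe sets. NAC factors had 4 of 33 probe sets higher and 0 lower, a share of 12.1% against 14.0% over all probe sets. The list's median log2 change was 0.55, and 0.34 without optimum replicate 3. NAC2 read 5841, 5216, 3337 and 4542 at 30% inhibition and 2729.8, 2499, 1654 and 1688 at the optimum, a log2 change of 1.15 ± 0.22. LOC100170714, also named GmNAC109, changed by 0.84 ± 0.19 on the log2 scale.

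The larger families were called less often than all probe sets, a difference that was not tested. Of 87 bZIP probe sets 6 were higher and 2 lower, a share of 9.20% against 14.0% over all probe sets. BZIP124, the brightest of them, read 7710.1, 9681, 9518 and 13294 at 30% inhibition and 5322, 4877, 2572 and 3387 at the optimum, a log2 change of 1.35 ± 0.21 (adjusted p = 0.00051), and BZIP16 changed by 1.04 ± 0.16. WRKY factors, known from defence, had 3 higher and 2 lower of 89 (5.62%), and 2 of the 3 probe sets of WRKY24 were among those higher, the brightest at 0.75 ± 0.13. MYB factors outside the clock had 2 higher and 1 lower of 66 (4.55%). The smaller PHR family, which includes regulators of the phosphate starvation response, had 2 of 10 higher, a share of 20.0% against 14.0% over all probe sets. Of the 2 calls, 1 stayed past the threshold in every fit that left out 1 array. PHR13 changed by 0.54 ± 0.13.

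LHY and the MYB genes listed with it fell, and LUXC rose. Of 18 probe sets for clock, photoperiod and photoreceptor genes 2 were higher and 7 lower, with a median log2 change of -0.50, and all 9 stayed past the threshold in each fit that left out 1 array. LHY, a morning repressor of the clock, read 652, 719, 817 and 708 at 30% inhibition and 4129.8, 4688, 4228 and 4457 at the optimum in its brightest probe set. The 2 states were tight and far apart, and LHY fell by 2.60 ± 0.16 on the log2 scale (adjusted p = 2.5e-08), while its second probe set changed by -2.99 ± 0.20. MYB114, whose synonyms are GmLHY2b and LCL2, read 43.5, 30.2, 24.5 and 6.07 at 30% inhibition and 480, 387, 666 and 533 at the optimum. All 4 arrays of 30% inhibition were below background, which makes the gene at least 4.66-fold lower there (adjusted p = 2.77e-06). MYB134 read 114, 88.1, 115 and 127 at 30% inhibition and 1187, 1002, 1221 and 1131 at the optimum, a log2 change of -3.36 ± 0.16, with 2 arrays of 30% inhibition below background. MYB186, which the list takes in with these, read 382, 491, 806 and 393 at 30% inhibition and 2266, 2188, 2368 and 2694 at the optimum, a log2 change of -2.26 ± 0.19. In each of these genes the optimum already lay below baseline, where the means were 10400 ± 570 for LHY, 3292 ± 547 for MYB114, 7271 ± 723 for MYB134 and 5765 ± 573 for MYB186.

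LUXC, an evening factor of the LUX family, went the other way. It read 1546, 1418, 1171 and 1579 at 30% inhibition and 282, 383, 227 and 354 at the optimum, a log2 change of 2.22 ± 0.18 (adjusted p = 4.63e-07). COL10, a CONSTANS-like gene and the brightest of the list, read 13759, 15474, 16069 and 14773 at 30% inhibition and 21221, 23893, 24634 and 25541 at the optimum, and changed by -0.66 ± 0.10. Blue light receptor genes split, with the cryptochrome gene CRY2B at -0.76 ± 0.18 and GmCRY2c (LOC100808627) at 0.57 ± 0.12. Time since the start of the curve and temperature moved together in these samples, and the part of each in the clock genes cannot be told apart.

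**Figure D3:**
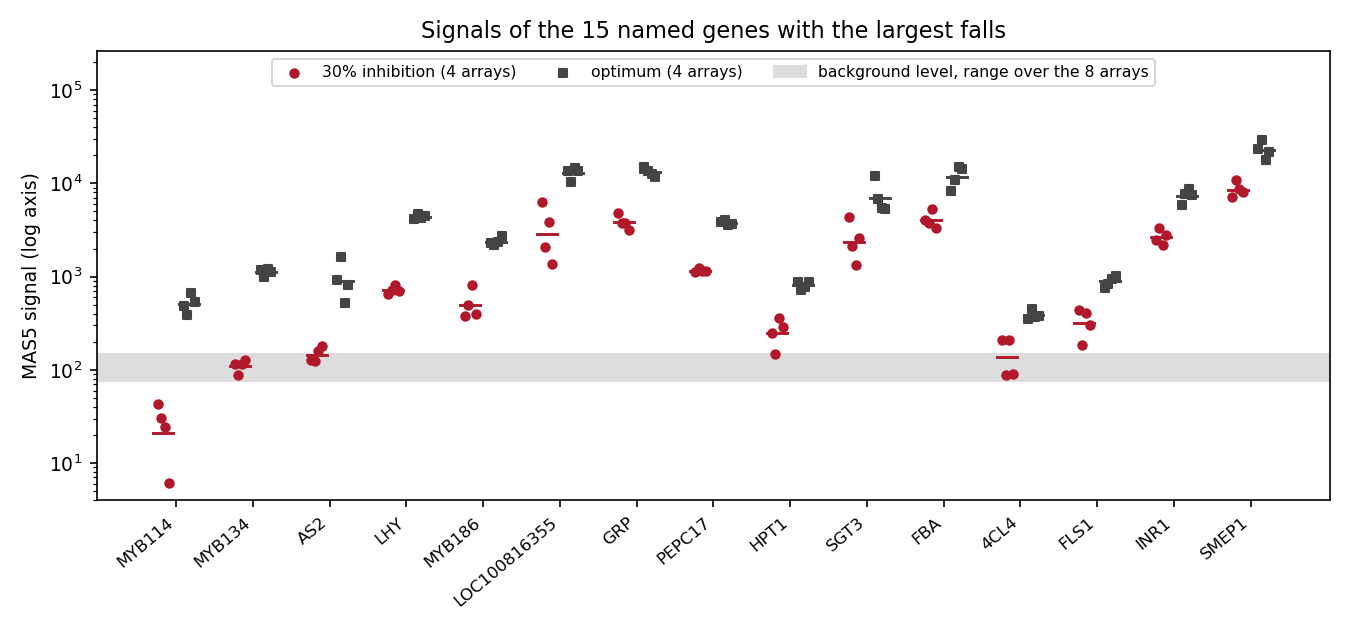
MAS5 signals (log axis) of the 15 named genes with the largest falls, 4 arrays of 30% inhibition (red circles) left of 4 arrays of the optimum (grey squares), with geometric means as bars and the range of the background level shaded. The genes were picked from those with no overlap between the states, so in each the 4 red points lie below the 4 grey ones. MYB114 lies below background at 30% inhibition.

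Of 12 probe sets for photosystem and light-harvesting genes 2 were lower and 0 higher, a share of 16.7% against 14.0% over all probe sets, with a median log2 change of 0.04. CAB3, a light-harvesting chlorophyll-binding protein and the brightest of the list, read 56613, 67442, 70820 and 82631 at 30% inhibition and 60445, 67436, 70445 and 65112 at the optimum, which overlapped (log2 change of 0.06 ± 0.12, adjusted p = 0.776). PSAD, a subunit of photosystem I, gave 51463 ± 5151 at 30% inhibition and 51573 ± 3797 at the optimum in its brightest probe set, and 2153 ± 301 at 30% inhibition against 4165 ± 359 at the optimum in a dimmer one (log2 changes of -0.01 ± 0.12 and -0.96 ± 0.12). The other probe set that fell was ELIP, an early light-induced protein, which read 5078, 3441, 3164 and 2247 at 30% inhibition and 7851, 7834, 9017 and 9120.3 at the optimum, a log2 change of -1.34 ± 0.21 (adjusted p = 0.000468).

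In carbon fixation, 2 of 8 probe sets for the Calvin cycle and Rubisco activase were lower and 0 higher, with a median log2 change of -0.30. This share was not tested against the 14.0% over all probe sets, and 8 probe sets are few for such a comparison. The fall that stayed past the threshold in every fit that left out 1 array was FBA, a fructose-bisphosphate aldolase, at 4024, 3797, 5305 and 3336 for 30% inhibition and 8208, 10886, 15127 and 14413 for the optimum, a log2 change of -1.54 ± 0.27 (adjusted p = 0.00132). RCA14, a Rubisco activase gene, read 20421, 23928, 23600 and 25482 at 30% inhibition and 24409, 26856, 30092 and 28999 at the optimum in its brightest probe set. These ranges overlapped at the edge, and the log2 change was -0.24 ± 0.12 (adjusted p = 0.192). In photorespiration, SHMT, a serine hydroxymethyltransferase, read 3924, 2594, 3922 and 2544 at 30% inhibition and 6649, 5280.2, 6523 and 5100.3 at the optimum, a log2 change of -0.88 ± 0.20, and was 1 of 2 probe sets tested. Chlorophyll and carotenoid metabolism had 2 lower and 0 higher of 17, a share of 11.8% against 14.0% over all probe sets. Both were of GSA1, the glutamate-semialdehyde aminomutase at the start of chlorophyll synthesis, whose brighter probe set changed by -0.62 ± 0.14.

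Tocopherol synthesis makes lipid antioxidants of chloroplast membranes. Of its 15 probe sets 5 were lower and 1 higher, with a median log2 change of 0.09. The 3 largest falls belonged to HPT1, homogentisate phytyltransferase. Its brightest probe set read 249, 149, 361 and 289 at 30% inhibition and 870, 723, 773 and 867 at the optimum, a log2 change of -1.69 ± 0.34 (adjusted p = 0.0031), and another changed by -1.41 ± 0.24.

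Phosphoenolpyruvate carboxylase refills the citric acid cycle for amino acid synthesis in leaves of this kind. The list of this enzyme and its kinase had 5 of 10 probe sets lower and 0 higher, with a median log2 change of -0.45. That share was 50.0% against 14.0% over all probe sets. Of the 5, 3 stayed past the threshold in each fit that left out 1 array. PEPC17 read 1115, 1241, 1142 and 1151 at 30% inhibition and 3872, 4003, 3559.5 and 3656 at the optimum. The log2 change was -1.70 ± 0.11 (adjusted p = 3.43e-08). PEPC4 read 438, 418, 484 and 332 at 30% inhibition and 887, 989, 754 and 1037 at the optimum, a log2 change of -1.14 ± 0.17. Of 11 starch and sucrose probe sets 2 were lower and 0 higher, a share of 18.2% against 14.0% over all probe sets. Both were for the sucrose synthase gene SS, whose brightest probe set changed by -1.15 ± 0.19. Of 13 sugar transport probe sets 0 passed in limma, and 3 had an unadjusted p under 0.05.

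Nitrogen assimilation had 4 of 26 probe sets lower and 0 higher, a share of 15.4% against 14.0% over all probe sets, with a median log2 change of -0.24, and all 4 stayed past the threshold in each fit that left out 1 array. AS2, an asparagine synthetase, read 127, 123, 160 and 179 at 30% inhibition and 929, 1614, 524 and 819 at the optimum. The optimum values were spread, and the log2 change was -2.62 ± 0.29 (adjusted p = 1.96e-05). INR1, an inducible nitrate reductase, read 2494, 3363, 2157 and 2824 at 30% inhibition and 5807, 7669, 8673 and 7486 at the optimum, a log2 change of -1.46 ± 0.22 (adjusted p = 0.000325). INR2, its close relative, changed by -1.38 ± 0.22 and GDH1, a glutamate dehydrogenase, by -0.94 ± 0.20.

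**Figure D4:**
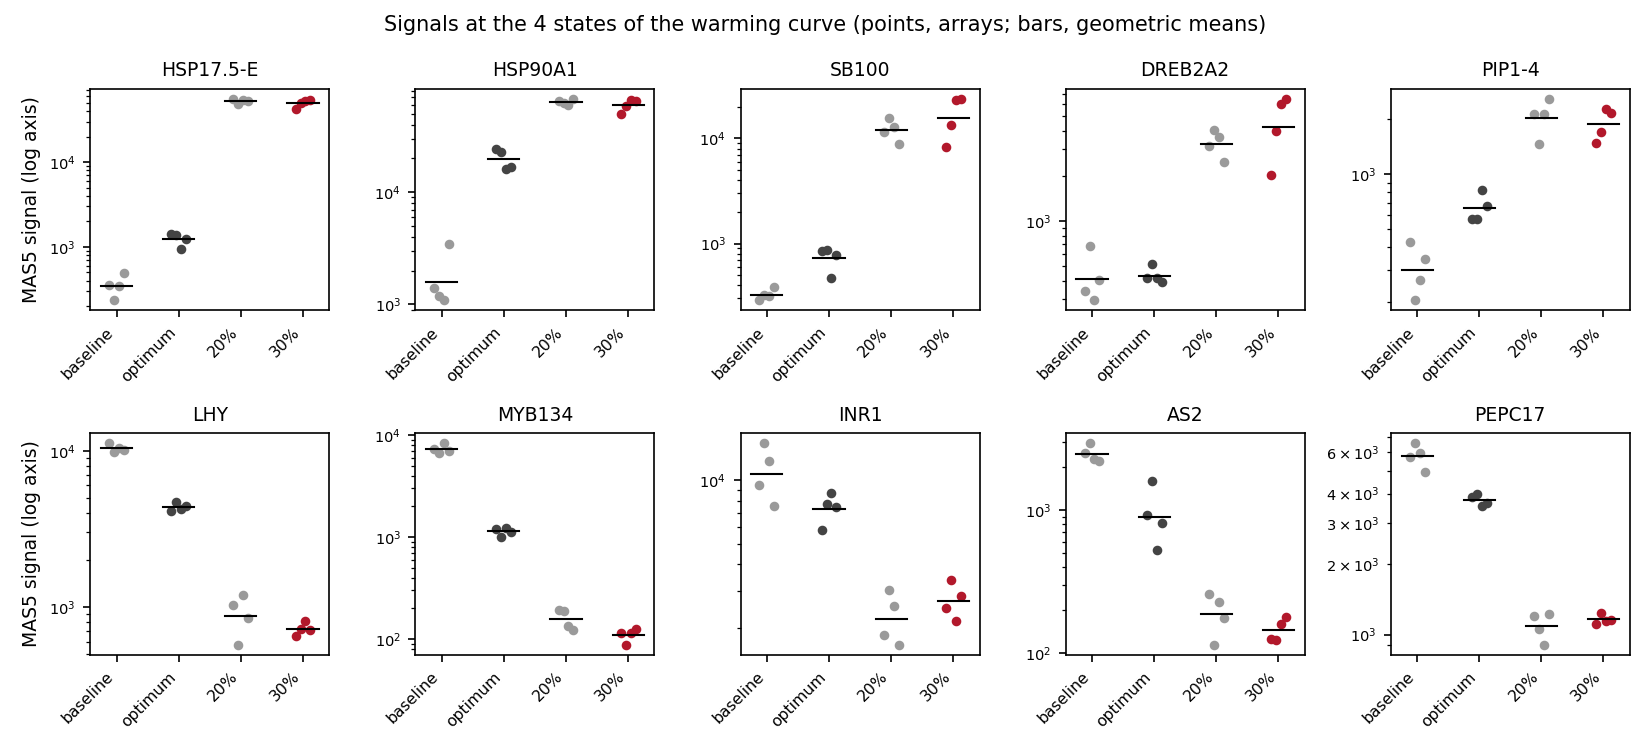
MAS5 signals (log axes) of 10 genes at baseline, optimum, 20% and 30% inhibition, in the order of the warming curve, with 4 arrays per state as points and geometric means as bars. All 10 were picked from genes with no overlap between 30% inhibition and the optimum. The 30% points therefore lie above the optimum in the upper row and below it in the lower row. The baseline and optimum points overlap in DREB2A2 and INR1 and in no other gene shown.

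For several of these genes the values at 30% inhibition can be set beside those at 20% inhibition. HSP17.5-E averaged 49400 ± 5264 at 30% inhibition and 52719 ± 3134 at 20% inhibition (SD, n = 4 each). DREB2A2 averaged 4639 ± 2056 at 30% inhibition and 3330.3 ± 666 at 20% inhibition. LHY averaged 724 ± 68.5 at 30% inhibition and 910 ± 264 at 20% inhibition, and PEPC17 1162 ± 54.5 at 30% inhibition and 1098 ± 149 at 20% inhibition. Against the optimum, the log2 change of MYB134 was -3.36 ± 0.16 at 30% inhibition and -2.85 ± 0.16 at 20% inhibition, and that of LUXC 2.22 ± 0.18 at 30% inhibition and 1.96 ± 0.18 at 20% inhibition. In limma, 0 of these genes passed between 30% and 20% inhibition.

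Of 62 flavonoid and phenylpropanoid probe sets 2 were higher and 8 lower, a share near the 14.0% over all probe sets, with a median log2 change of -0.26. FLS1, flavonol synthase, read 434, 186, 404 and 306 at 30% inhibition and 762, 837, 954 and 1017 at the optimum, a log2 change of -1.49 ± 0.22 (adjusted p = 0.000259). The ligase gene 4CL4, at the entry of the pathway, read 210, 88.8, 209 and 89.1 at 30% inhibition and 347, 450, 368 and 379 at the optimum, with 2 arrays of 30% inhibition below background, a log2 change of -1.49 ± 0.29. IFS1, isoflavone synthase, changed by -1.35 ± 0.23. CHR4, a chalcone reductase of the isoflavonoid branch, rose, at 1651, 1848, 1473 and 1826 for 30% inhibition and 634, 905, 554 and 841 for the optimum, a log2 change of 1.23 ± 0.19 (adjusted p = 0.000344).

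Some genes of triterpenoid metabolism were among the falls. SGT3, a glycosyltransferase of soyasaponin, read 4383, 2150.4, 1326 and 2566 at 30% inhibition and 12105, 6784, 5503 and 5312 at the optimum. The log2 change was -1.56 ± 0.29 (adjusted p = 0.00209). CYP93E1, the hydroxylase of the soyasaponin precursor, read 8711, 6851, 6692 and 8373 at 30% inhibition and 19930, 12406, 18675 and 14052 at the optimum, a log2 change of -1.07 ± 0.17 (adjusted p = 0.000428), and all 3 of its probe sets were lower. CYP72A67 changed by -1.07 ± 0.17. Over the cytochrome P450 list 2 were higher and 6 lower of 37, a share of 21.6% against 14.0% over all probe sets.

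Of 10 fatty acid desaturase probe sets 3 were higher and 5 lower, with a median log2 change of -0.67, but 2 of the 8 calls stayed past the threshold in every fit that left out 1 array. SACPD-C, a stearoyl-ACP desaturase that makes oleate, read 994, 456, 2582 and 4098 at 30% inhibition and 368, 66.8, 12.2 and 38.5 at the optimum. The values spread widely in both states and 3 optimum arrays were below background, with a log2 change of 4.67 ± 1.04 (adjusted p = 0.00672). FAD6.1, a chloroplast desaturase that makes linoleate, read 403, 407, 523 and 258 at 30% inhibition and 571, 816, 1029.9 and 1124 at the optimum, a log2 change of -1.15 ± 0.23 (adjusted p = 0.00296). Its baseline mean was 2484 ± 469, above both states. In membrane and storage lipid synthesis MGD1, which makes the galactolipid of thylakoids, changed by -0.65 ± 0.15 and DGAT1A, which makes triacylglycerol, by 0.67 ± 0.15, 1 lower and 1 higher of 9 probe sets.

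Aquaporins, the water channels of membranes, had 1 of 34 probe sets higher and 4 lower, a share of 14.7% against 14.0% over all probe sets. PIP1-4 of the plasma membrane read 1476, 1702, 2272 and 2164 at 30% inhibition and 571, 572, 823 and 668 at the optimum, a log2 change of 1.53 ± 0.22 (adjusted p = 0.000268). PIP1-8 of the same subfamily read 836, 985, 1225 and 1493 at 30% inhibition and 2479, 1753, 1943 and 1885 at the optimum and changed by -0.85 ± 0.18. SIP1-6 fell in 2 of its 3 probe sets. In the dimmest of these, where 1 array of 30% inhibition was below background, the log2 change was -1.56 ± 0.32, and its brightest probe set gave -1.22 ± 0.50 (adjusted p = 0.115). The brightest aquaporin, PIP1-7, averaged 43497 ± 6749 at 30% inhibition and 42099 ± 1500 at the optimum (adjusted p = 0.888). Of 19 abscisic acid and dehydration probe sets 2 were higher and 2 lower, a share of 21.1% against 14.0% over all probe sets. The rises were both for PM37, whose brighter probe set changed by 0.70 ± 0.11. For low signal, 24 of the list's 43 probe sets were not tested.

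Of 45 glutathione S-transferase probe sets, for enzymes that join glutathione to toxic compounds, 8 were higher, 2 lower and 35 did not pass. The share that passed was 22.2%, against 14.0% over all probe sets. Glyoxalases had 0 higher and 1 lower of 9 (11.1%), and aldehyde dehydrogenases 1 higher and 0 lower of 12 (8.33%). The gene GSTa read 22449, 25512, 23839 and 27758 at 30% inhibition and 12742, 14560, 12395 and 12783 at the optimum, a log2 change of 0.92 ± 0.14 (adjusted p = 0.00037), GSTU47 changed by 0.91 ± 0.17 and GSTU37, the brightest, by 0.68 ± 0.11. For ascorbate peroxidases, superoxide dismutases, catalase and related enzymes 0 of 18 probe sets passed in limma, and 4 had an unadjusted p under 0.05. The brightest, SODB, averaged 55793 ± 6026 at 30% inhibition and 53743 ± 2831 at the optimum (adjusted p = 0.798). Ferritin, the iron store of plastids, rose in the 3 probe sets of SFERH-3 among 10 of the list, a share of 30.0% against 14.0% over all probe sets. The brightest read 21758, 19776, 21180 and 17615 at 30% inhibition and 12464, 13320, 14428 and 13708 at the optimum, a log2 change of 0.57 ± 0.12 (adjusted p = 0.00472), and the dimmest changed by 2.53 ± 0.40.

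AOX1, the alternative oxidase of mitochondria, read 6255, 8121, 6759.8 and 6924 at 30% inhibition and 4594, 3941, 1683 and 2711 at the optimum, a log2 change of 1.21 ± 0.33 (adjusted p = 0.0229). The adjusted p was 0.064 without 30% inhibition replicate 2, 0.0521 without 30% inhibition replicate 4, 0.079 without optimum replicate 3 and 0.0613 without optimum replicate 4. The optimum mean of AOX1 was 3232 ± 1295, below the baseline mean of 5310.1 ± 1734.

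Hormone and signalling lists were mixed. In the gibberellin list 2 of 20 were higher and 2 lower, a share of 20.0% against 14.0% over all probe sets. GASA24, of a gibberellin-regulated peptide family, read 6892, 7068, 5157 and 6716 at 30% inhibition and 3510.4, 2813, 4188 and 3140 at the optimum, a log2 change of 0.92 ± 0.18 (adjusted p = 0.00259), and GAI1, of the DELLA repressors, changed by -0.77 ± 0.18. Jasmonate and lipoxygenase genes had 0 of 48 past the threshold in limma and 7 at an unadjusted p under 0.05. The brightest, LOXB1, averaged 64620 ± 10353 at 30% inhibition and 63019 ± 3557 at the optimum. Calmodulins and calcium-dependent kinases had 4 lower and 0 higher of 16, all 4 for calmodulin genes, of which SCAM-3 read 1486, 1368, 936 and 1159.9 at 30% inhibition and 3509, 2302, 2056 and 1865 at the optimum, a log2 change of -0.95 ± 0.20. The GF14 family of 14-3-3 proteins, adaptors that bind phosphorylated partners, had 2 higher and 4 lower of 13. That share was 46.2% against 14.0% over all probe sets, and 5 of the 6 calls stayed in every fit that left out 1 array. Among them GF14B changed by 0.58 ± 0.12, SGF14G by -0.71 ± 0.10 and SGF14n by -1.25 ± 0.31.

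Of the remaining named genes with the largest changes, SMEP1, a metalloendoproteinase, read 7227, 10906, 8610.2 and 8014 at 30% inhibition and 23538, 28903, 17955 and 21827 at the optimum, a log2 change of -1.40 ± 0.23. GRP read 4779.8, 3732, 3749.8 and 3155 at 30% inhibition and 15081, 13426, 12615 and 11650 at the optimum, a log2 change of -1.78 ± 0.18 (adjusted p = 5.85e-06). LOC100816355, also named GmCUPIN16.1 for the cupin family, spread from 1353 to 6352 at 30% inhibition and from 10392 to 14475 at the optimum, a log2 change of -2.17 ± 0.51. In growth and housekeeping lists, the tubulin gene TUBB2 changed by -0.71 ± 0.16 and was 1 of 3 probe sets, the ribosomal protein gene RPL2 changed by -0.41 ± 0.10 in a list with 3 of 10 lower, and 0 of 6 expansin and xyloglucan transferase probe sets passed in limma, with 2 at an unadjusted p under 0.05. Lists for brassinosteroids, WNK kinases, IQD proteins and pathogenesis-related proteins had 0 past the threshold in limma, of 7, 5, 4 and 11 probe sets. At an unadjusted p under 0.05 they had 1, 0, 1 and 0.

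**Figure D5:**
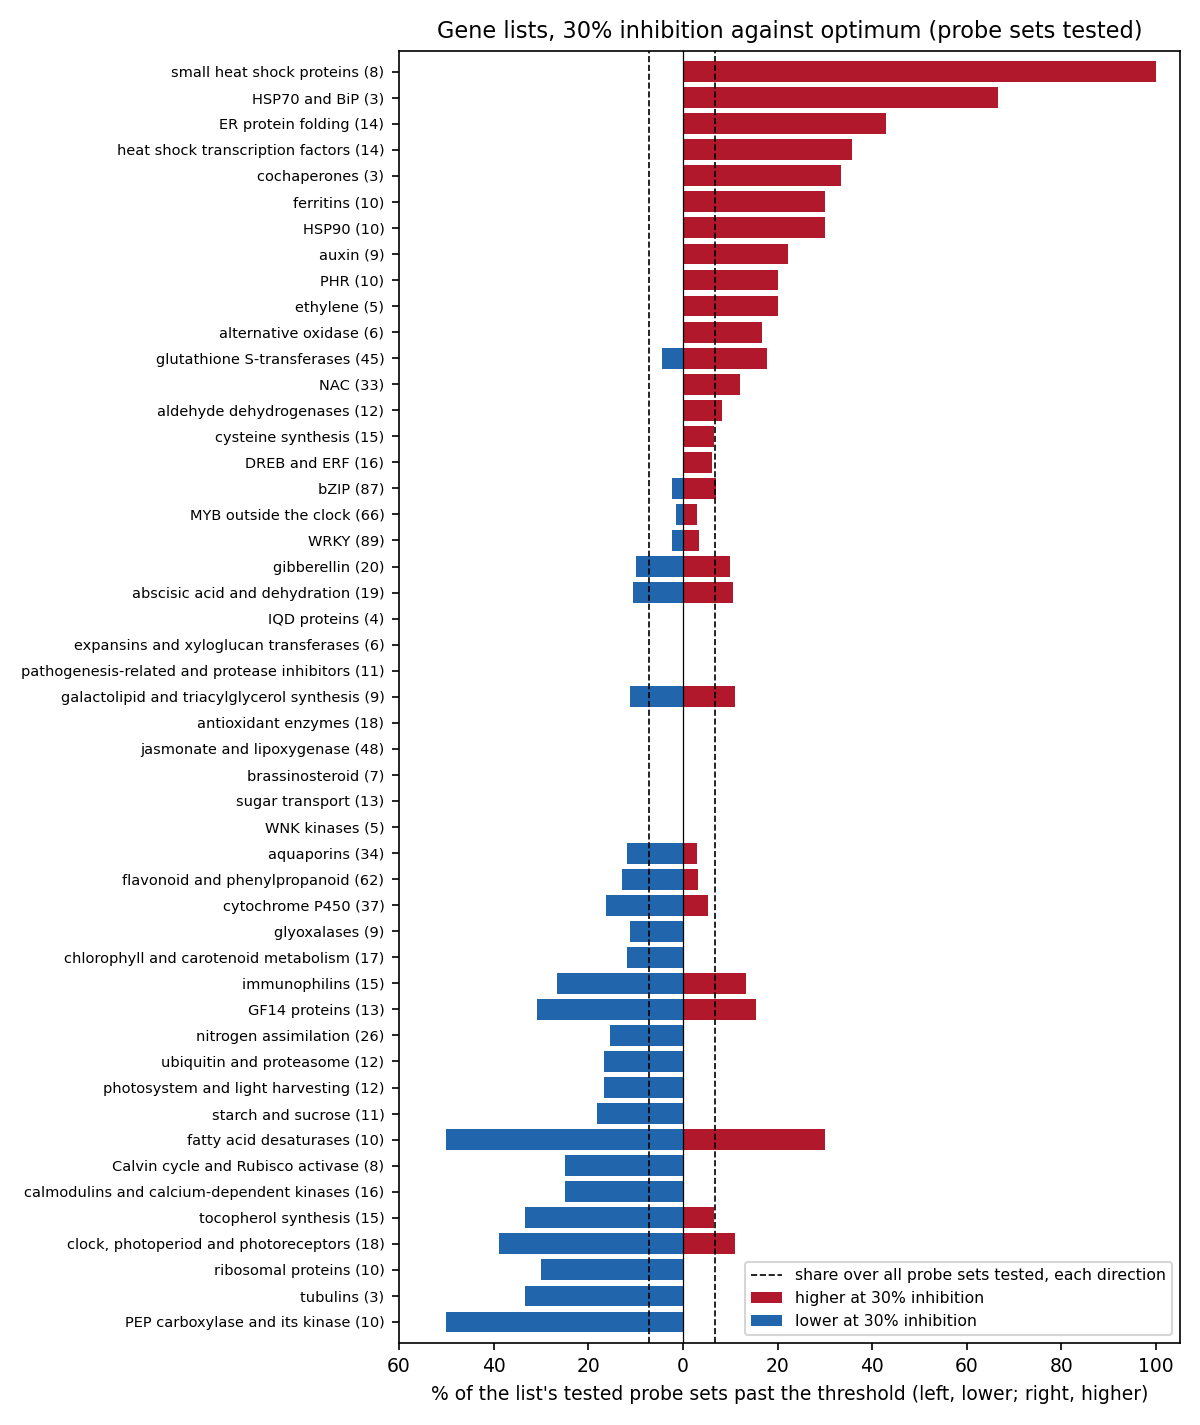
Share of each list's tested probe sets that were higher (red, to the right) or lower (blue, to the left) at 30% inhibition than at the optimum, with the number tested in brackets, for lists with at least 3 probe sets tested. Dashed lines mark the shares over all probe sets, 6.86% higher and 7.12% lower. The small heat shock proteins stand at 8 of 8 higher, and the list of PEP carboxylase and its kinase has the longest bar to the left together with the fatty acid desaturases.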

How the data were processed

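Leaf RNA was hybridised to 16 Affymetrix soybean arrays, 4 per physiological state. The deposited values are intensities, 1 MAS5 signal per probe set and array, on a linear scale; MAS5 is named in the submitters' processing notes, with no version. Each array had the same trimmed mean of 500.0 as deposited, so scaling was not repeated. Signals were turned to log2 without a pseudocount. Probe sets with a mean log2 signal above 6.08, the median over all of them, were tested, 30517 of 61035, with limma 3.58.1 (R 4.3.3, a linear model of all 4 states with an intensity-trended variance prior and Benjamini-Hochberg adjustment over all probe sets tested). The code was tested on simulated data first. Below background means under the array's own 95th percentile of PsAffx and HgAffx probe sets. A bound ("at least") sets the dim state at that level.

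Genes were named through the array annotation: 8677 probe sets have 1 gene, 370 several and 52123 none, and none was named from a probe set with several. The rule named 125 genes: the 15 largest rises and 15 largest falls among named genes with an adjusted p under 0.05 and no overlap, and from each of 52 gene lists the 2 largest rises, the 2 largest falls and the brightest member, a gene being represented by its brightest probe set. The text gives values for part of them. Other probe sets of these genes, and BIP4, CRY2B, HSF-03, HSF-26, INR2, GDH1, IFS1, GAI1, SCAM-3, PSAD and SIP1-6 probe sets outside the rule, were chosen after their values were seen. The members and lists were chosen with earlier results of these data known. Single array measures were compared by exact permutation tests. Alternatives covered the filter, the scaling, a floor, a pseudocount, the variance prior, array weights, background as a covariate, a replicate block and each array left out.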

Additional observations from a re-analysis of the deposited data

Results flagged for a closer look

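In 6 of 198 sets of 4 arrays, 1 array stood apart from the other 3 by Dixon's ratio of gap to range at the 95% level, and chance alone flags about 1 set in 20. GASA24 read 5157 on 30% inhibition replicate 3, against 6716 to 7068 on the other 30% arrays. The other 5 concern the optimum. HSP22.3 read 1100.0 on optimum replicate 1, against 929.9 to 949.1 on the others. SB100 read 468 on optimum replicate 3, against 784 to 869. J1 read 1444 on optimum replicate 1, against 2010 to 2048, and its log2 change was 0.21 without that array. CCT-D read 1947 on optimum replicate 1, against 1695 to 1735. BZIP16 read 401 on optimum replicate 1, against 471 to 487.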

How the results depend on the processing

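Of 87 probe sets named in the text that passed the threshold, 84 passed in every alternative setting run for them, of 19, and none changed sign. The setting above the upper quartile of signal could be run for 73 of the 87. The exceptions were AOX1, whose values are given above and which also missed the threshold with array background as a covariate, LOC100816355 (GmCUPIN16.1) under the same covariate, and LOC100791065 (SUBI-1) without a filter on low values. Part of the 87 were chosen after their values were seen, and the brightest BIP4 probe set is not among them. Over all calls between 30% inhibition and the optimum, 55.3% stayed past the threshold in all 8 fits that left out 1 array. RCA14, which had not passed, passed after quantile normalization, and the brightest SIP1-6 probe set with array weights, with the 8 arrays alone and with signals below background set to that level. With array background as a covariate the calls between 30% inhibition and the optimum fell to 2739 (1432 higher, 1307 lower), and those between 20% inhibition and the optimum to 2223; the cause was not tested. The other 10 settings gave 3260 to 5319 calls for 30% inhibition, and leaving out 1 array gave 3001 to 3926. For 20% inhibition the counts without 1 array were 3731 to 5010. Between 30% and 20% inhibition the count was 0 in all settings run. Genes that had not passed changed sign near 0: HSF-26 was -0.14 with the background covariate, PIP1-7 -0.024 and LOXB1 -0.014 after quantile normalization. Without 1 array the log2 changes ran from -0.33 to 0.070 for HSF-03, -0.075 to 0.34 for HSF-26, -0.024 to 0.16 for CAB3, -0.054 to 0.060 for PSAD, -0.048 to 0.12 for PIP1-7, -0.019 to 0.10 for SODB and -0.076 to 0.10 for LOXB1. Deviations from the state means correlated at 0.0178 to 0.1747 between 30% inhibition and optimum arrays of the same replicate number. Between different numbers they correlated at -0.1763 to 0.1173. Whether the replicate numbers pair the arrays was not tested, and a fit with the replicate block gave 3816 calls. Signal over background limits genes dimmer than the filter, which were not tested.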
